A study of Caenorhabditis elegans and Caenorhabditis briggsae with 12 samples.

Results

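The proteasome of *C. elegans* was followed at the mRNA level through an acute heat shock. Its subunits were taken as the genes of the normalized count table named *pas-1* to *pas-7*, *pbs-1* to *pbs-7*, *rpt-1* to *rpt-6* or *rpn* with a number, which gave 33 of 20213 genes. Of these, 14 encode the core particle and 19 the regulatory particle, and all 33 were abundant enough to be tested. The samples were L2 larvae, taken whole, of the wild type strain N2, either after 30 min at 34 °C (HS) or kept at 20 °C (NHS), with 3 biological replicates each. The same 2 conditions, again with 3 replicates each, were available for *C. briggsae* AF16. There only the orthologs of 3 subunits were followed, those named in the part of the published gene lists at hand. No mutant, transgene or drug was part of any group, so HS and NHS differ in temperature alone as far as the labels say. Because whole larvae were extracted, fewer cells of a type and less RNA per cell cannot be told apart.

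The proteasome is the protease that degrades most proteins marked with ubiquitin in the cytosol and nucleus. Its core particle is a barrel of stacked rings, the outer ones built of alpha subunits (*pas*), which gate the entrance, and the inner ones of beta subunits (*pbs*), some of which carry the protease sites on their inner face. The regulatory particle caps the barrel. Its base holds a ring of ATPases (*rpt*) that unfolds substrates and non-ATPase subunits, several of which bind ubiquitin or its carriers. Its lid holds scaffold subunits and the enzyme that cuts ubiquitin off. In many eukaryotes the subunit genes are kept at similar levels by a shared transcription factor, in *C. elegans* a form of SKN-1, and misfolded protein is a load that heat adds to this machine.

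The libraries differed in composition. The normalized counts summed to 39.4 to 43.0 M per HS library and 32.2 to 32.5 M per NHS library, and the 10 most abundant genes took 14.5 to 16.2% of the HS libraries against 7.40 to 7.75% of the NHS libraries. Depth estimated from the smallest step between values was 28.6 to 43.9 M reads in HS and 32.8 to 39.0 M in NHS. Among markers of single tissues, the summed count of the body wall muscle genes *myo-3* and *unc-54* was 459715 to 508369 in HS and 371564 to 414754 in NHS, and that of the neuronal genes *rab-3* and *unc-119* was 852 to 1151 in HS and 1397 to 1453 in NHS. Counts of the intestine genes *elt-2*, *ges-1* and *vha-6* summed to 22828 to 24848 in HS and 26220.0 to 27014 in NHS, with *elt-2* up and the others down. The pharynx gene *myo-2* had 63838 to 73303 in HS and 54864 to 56191 in NHS. The germline genes *pgl-1* and *glh-1* summed to 4741 to 5225 in HS and 5559 to 5730 in NHS. The groups of *glh-1* do not overlap, but those of *pgl-1* do, with 1952 to 2213 in HS and 2105 to 2297 in NHS. The hypodermis genes *dpy-7* and *elt-3* summed to 2333 to 4797 in HS and 4210 to 7931 in NHS, the only list whose sums overlap. The 8 genes of adult yolk and sperm summed to 156 to 253 in HS and 80.2 to 85.0 in NHS, with *gsp-3* and *spe-11* too low to test. The part of these shifts in the results that follow was not tested.

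Proteasome subunit mRNA as a whole stayed near its level at 20 °C on the scale of the normalized counts, with 1 subunit standing apart from the rest. No subunit changed by more than 2-fold with an adjusted p under 0.01 (limma, adjusted over all genes tested), limits that 10.2% of the 17551 genes tested passed upward and 2.77% downward. At an adjusted p under 0.05 and any fold change, 3 subunits rose, 9 fell and 21 did not pass, where 24.8% of all genes rose and 20.2% fell. Those that rose were *rpn-3*, *rpn-8* and *pas-5*. The median log2 fold change of the 33 subunits was -0.07, against 0.04 over all genes tested, and 12 of the 33 values were above 0. Leaving out 1 library at a time moved the subunits' median between -0.11 and -0.04, the highest without HS replicate 1. In 6 subunits every HS library was above every NHS library and in 11 every HS library was below, separations that 30.6% and 25.5% of all genes showed. The number that fell was 5 when HS replicate 1 or NHS replicate 3 was left out, and 1 subunit passed the 2-fold limit without HS replicate 3.

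**Figure D1:**
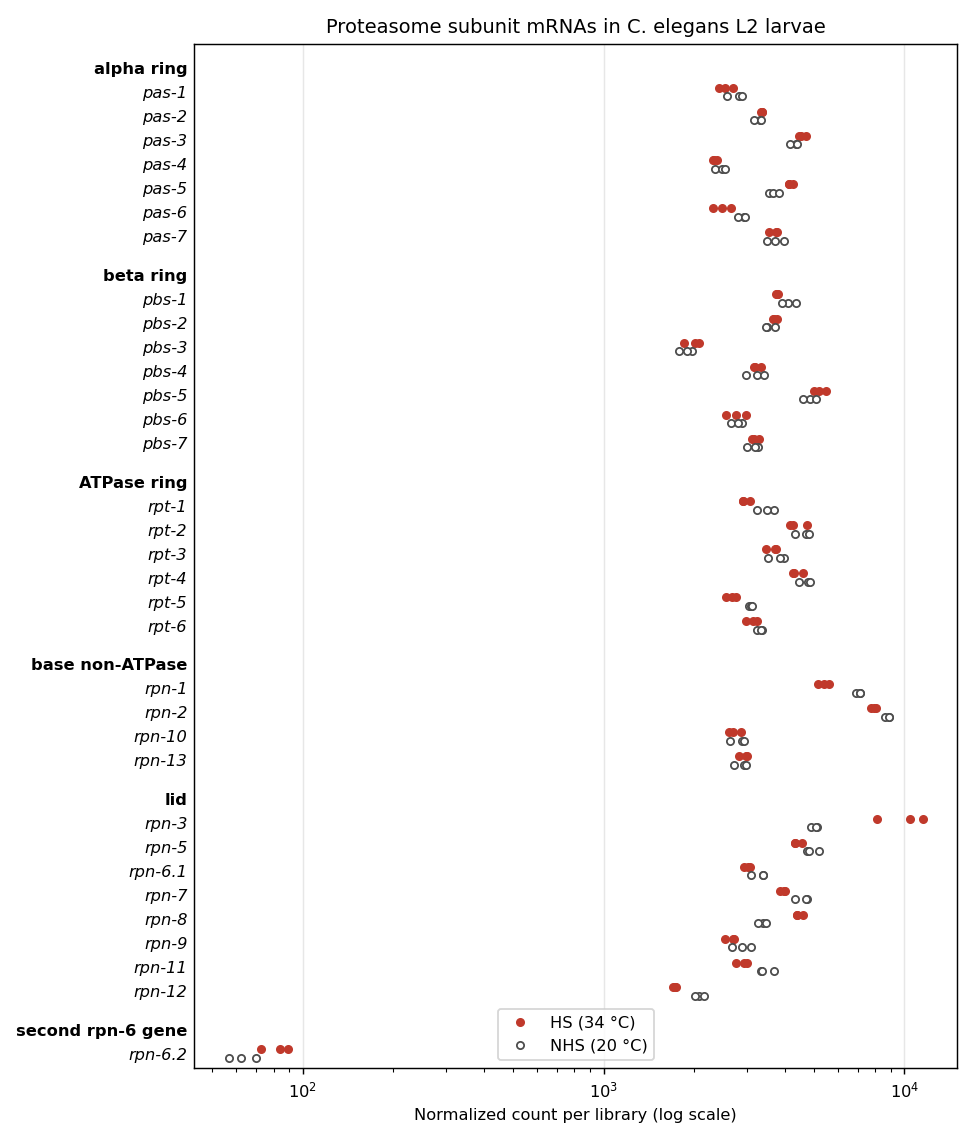
Normalized count of each of the 33 subunit mRNAs in the 3 HS libraries (filled) and the 3 NHS libraries (open), on a log axis and grouped by place in the complex. Most pairs of groups touch or nearly touch, *rpn-3* lies at 8099 to 11516 in HS against 4876 to 5137 in NHS, and *rpn-6.2* lies far below the other subunits at 72.4 to 88.9 in HS.

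Summed over all 33 genes, the subunits had 117632, 121874 and 121555 normalized counts in the HS libraries and 121281, 116664 and 124660 in the NHS libraries. The groups overlap on this scale. As a share of each library, the subunits took 0.280, 0.283 and 0.308% in HS and 0.376, 0.359 and 0.384% in NHS. By share, every HS library lies below every NHS library, and the larger HS library sums given above enter this share. When every library was scaled to the same total, 1 subunit rose and 30 fell, on a scale where 13.8% of all genes rose, 47.9% fell and the median of all genes moved to -0.32. The subunits' own median there was -0.43, so whether subunit mRNA fell as a whole depends on the scale, and the values that follow are on the scale of the normalized counts unless another is named.

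In the lid, *rpn-3* (WBGene00004460) showed the largest change of the complex. It encodes a scaffold subunit that helps to hold the lid together. It lies on chromosome III at 8447353 to 8449346 (WBcel235, plus strand). Its normalized counts were 10444, 11516 and 8099 in HS and 5137, 4876 and 5101 in NHS. All 3 HS libraries are well above the NHS libraries, and HS replicate 3 is the lowest of the HS libraries. The mean was 1.99-fold higher in HS, and the log2 fold change was 0.98 (SE 0.12, 95% interval 0.69 to 1.26, limma adjusted p = 7.2e-04). The interval covers the 2-fold limit, and without HS replicate 3 the log2 fold change was 1.12 and passed it. Scaling to equal totals kept *rpn-3* up as the only subunit.

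*rpn-8* (WBGene00004464) encodes the lid subunit that pairs with the deubiquitinating subunit *rpn-11*, and lies on chromosome I at 4175319 to 4177271 (plus strand). Its normalized counts were 4589, 4394 and 4405 in HS and 3379.6, 3251 and 3479 in NHS. The HS libraries lie close together and all above the NHS libraries. It rose by 0.41 on the log2 scale (SE 0.05, adjusted p = 3.2e-04), 1.32-fold, and kept that call without any single library, but had a log2 fold change of 0.05 with libraries scaled to equal totals (adjusted p = 0.52).

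The catalytic partner fell. *rpn-11*, the metalloprotease that removes ubiquitin chains as substrates enter, had 2752, 2988 and 2939 normalized counts in HS and 3327, 3364 and 3688 in NHS, and was at -0.26 as a log2 fold change (SE 0.06, adjusted p = 0.0080). *rpn-12*, a lid subunit that in yeast joins last as the lid is assembled, had 1705, 1726 and 1736 in HS and 2082, 2017 and 2158 in NHS, and was at -0.28 as a log2 fold change (SE 0.06, adjusted p = 0.0032). Neither gene overlapped between conditions, and the 3 HS values of *rpn-12* were nearly the same.

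Both other lid genes that fell encode scaffold subunits. *rpn-7* had 3848, 3991 and 3999 normalized counts in HS and 4736, 4318 and 4725 in NHS (log2 fold change -0.22, adjusted p = 0.011). *rpn-5* had 4324, 4316 and 4552 in HS and 4764, 4838 and 5206 in NHS (log2 fold change -0.17, adjusted p = 0.035). The HS libraries of both genes are below all NHS libraries, but by little in *rpn-5*, which lost its call when any 1 of HS replicates 1 and 2 or NHS replicates 2 and 3 was left out, with adjusted p up to 0.14.

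*rpn-6.1* encodes the lid subunit that clamps core and cap together and is known in *C. elegans* for its link to long life in animals without a germline. Its normalized counts were 2928, 3028 and 3062 in HS and 3387, 3096 and 3389 in NHS (log2 fold change -0.13, adjusted p = 0.095). NHS replicate 2 comes close to the HS libraries. The second gene of this name, *rpn-6.2* (WBGene00010309, chromosome III, 8999817 to 9001999, minus strand), was far scarcer, at 88.9, 72.4 and 83.6 in HS and 56.6, 62.4 and 69.8 in NHS. The groups do not overlap, but HS replicate 2 lies next to NHS replicate 3, and the log2 fold change of 0.37 had an SE of 0.17 and did not pass (adjusted p = 0.094). The 8 genes of the lid without *rpn-6.2* had a median log2 fold change of -0.15 and a mean of 0.03. Of their values, 2 were above 0, those of *rpn-3* and *rpn-8*, and 6 were below 0. The median of those 6, a set picked by its sign, was -0.19.

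In the base, *rpn-1* (WBGene00004458, chromosome IV, 6906420 to 6909913, minus strand) fell most of all subunits. In yeast this large subunit is a docking site for ubiquitin carriers and for a deubiquitinase. Its normalized counts were 5149, 5387 and 5632 in HS and 6895, 7108 and 7108 in NHS. The gap between the groups is wider than the spread within either. The log2 fold change was -0.39 (SE 0.05, 95% interval -0.50 to -0.27, adjusted p = 4.1e-04), a ratio of 0.766. *rpn-2*, the other large scaffold of the base, had 7737, 7943 and 8079 in HS and 8869, 8616 and 8908 in NHS, with a log2 fold change of -0.15 (adjusted p = 0.027), a call lost when any 1 of HS replicates 1 and 2 or NHS replicates 1 and 3 was left out (adjusted p up to 0.096). The ubiquitin receptors *rpn-10* and *rpn-13* had log2 fold changes of -0.04 and 0.03, with overlapping groups.

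The 6 ATPases all had log2 fold changes below 0, from -0.22 to -0.06 with a median of -0.09, and 2 of them passed. *rpt-1* had 2914, 2914 and 3077 normalized counts in HS and 3681, 3234 and 3489 in NHS (log2 fold change -0.22, adjusted p = 0.016). *rpt-5* had 2551, 2751 and 2665 in HS and 3046, 3099.5 and 3113 in NHS (log2 fold change -0.22, adjusted p = 0.0092). The groups of both do not overlap. The call of *rpt-1* was lost when any 1 of HS replicates 1 and 2 or NHS replicates 1 and 3 was left out (adjusted p up to 0.062), whereas *rpt-5* passed without any single library. *rpt-2*, *rpt-3*, *rpt-4* and *rpt-6* did not pass.

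Changes were smaller in the core particle, with no log2 fold change above 0.18 or below -0.23. In the alpha rings, *pas-5* (WBGene00003926, chromosome I, 10566350 to 10567300, plus strand) had 4120.3, 4138 and 4257 normalized counts in HS and 3539.9, 3662 and 3845 in NHS. The HS libraries are all above the NHS libraries. It rose by 0.18 on the log2 scale (SE 0.05, adjusted p = 0.021), but had -0.18 with libraries scaled to equal totals, and its call was lost without HS replicate 1, NHS replicate 1 or NHS replicate 2 (adjusted p up to 0.072).

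*pas-6*, also of the alpha rings, had 2312, 2469 and 2647 in HS and 2925, 2804 and 2948 in NHS. The groups do not overlap, with HS the lower. It fell by 0.23 on the log2 scale (SE 0.06, adjusted p = 0.016), a call lost without HS replicate 1, NHS replicate 1 or NHS replicate 3 (adjusted p up to 0.069). The other 5 alpha genes did not pass.

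No beta subunit passed, and their median log2 fold change was 0.02. These include the subunits that by homology carry the protease sites, *pbs-1*, *pbs-2* and *pbs-5*, with log2 fold changes of -0.13, 0.06 and 0.11. *pbs-5*, the fifth-highest log2 fold change of the complex, had 5021, 5222 and 5483 normalized counts in HS and 4869.9, 4603 and 5066 in NHS (adjusted p = 0.14). NHS replicate 3 lies within the range of the HS libraries. The 95% intervals of the 12 core subunits that did not pass ran from -0.26 to 0.24, short of 2-fold in either direction on this scale.

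**Figure D2:**
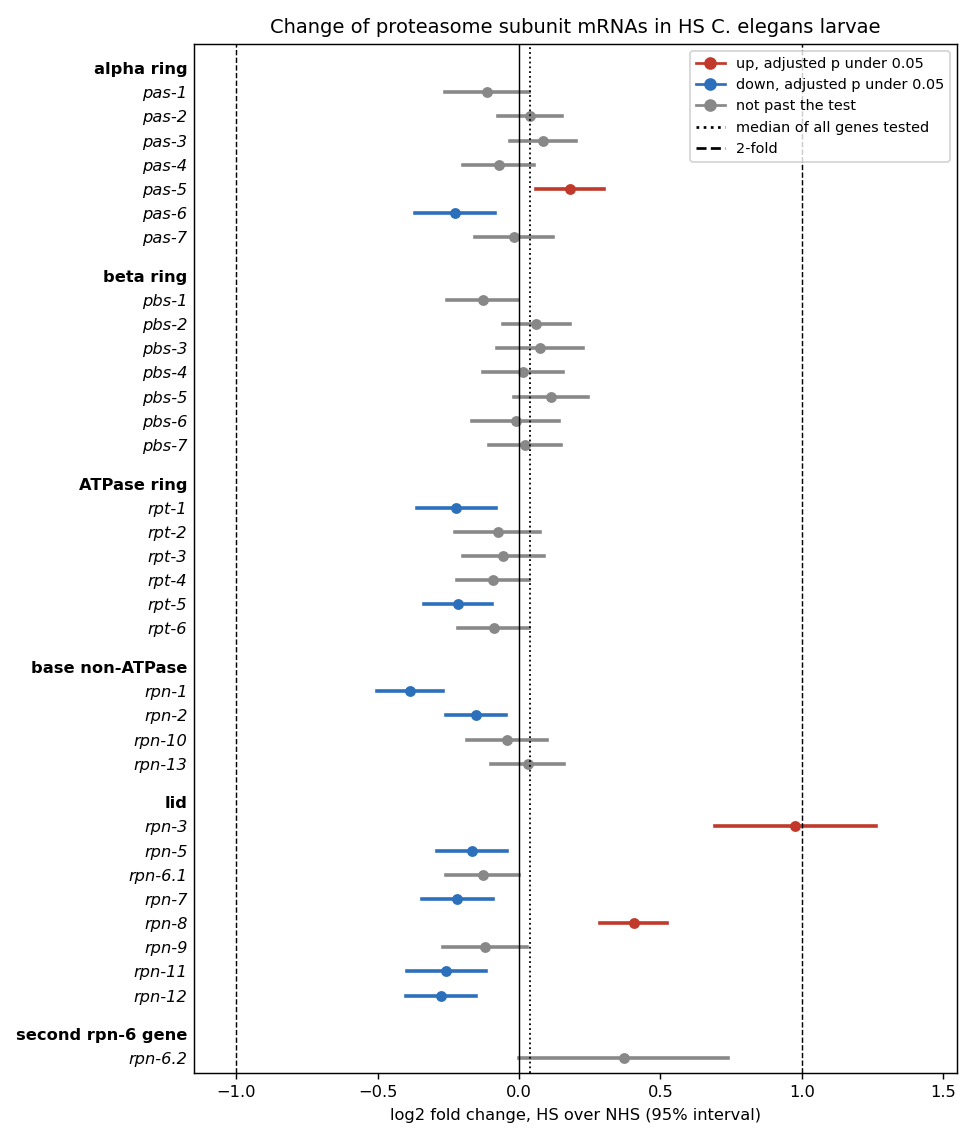
Log2 fold change, HS over NHS, of each subunit mRNA with its 95% interval from limma, on the scale of the normalized counts. The 3 that rose (*rpn-3* 0.98, *rpn-8* 0.41, *pas-5* 0.18) and the 9 that fell (lowest *rpn-1* -0.39) are coloured, and all intervals but that of *rpn-3* stay within 2-fold. With libraries scaled to equal totals *rpn-8* was at 0.05 and *pas-5* at -0.18.

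Core and regulatory particle were then set side by side. In the core particle 1 of 14 genes rose and 1 fell, and the log2 fold changes ran from -0.23 to 0.18 with a median of 0.02. Without HS replicate 1 or NHS replicate 1 no core gene passed either way, and the core median lay between -0.006 (without HS replicate 3) and 0.04 (without NHS replicate 3), so it has no settled sign. In the regulatory particle 2 of 19 rose and 8 fell, and the values ran from -0.39 to 0.98 with a median of -0.12. Over all genes tested 24.8% rose and 20.2% fell. The number of regulatory genes that fell was 5 without HS replicate 1, HS replicate 2 or NHS replicate 3. The difference of the medians, core minus regulatory, was 0.14, but the difference of the means was 0.04, since the means include *rpn-3* and *rpn-8*. Within a library the scale cancels. There the median log2 level of the core genes minus that of the regulatory genes was 0.14, 0.01 and 0.09 in HS and -0.04, -0.02 and -0.05 in NHS. Every HS library lies above every NHS library by this measure, though HS replicate 2 by little. With all libraries scaled to equal totals the core genes counted 0 up and 14 down and the regulatory genes 1 up and 16 down, where 47.9% of all genes fell.

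The balance between subunits was also read within each library as the ratio of a gene to the median subunit, leaving out *rpn-6.2*, which needs no scaling between libraries. *rpn-3* stood at 3.19, 3.48 and 2.43 times the median subunit in HS and at 1.52, 1.50 and 1.46 times in NHS. *rpn-8* stood at 1.40, 1.33 and 1.32 times in HS and at 0.999, 1.00 and 0.999 times in NHS, and *pas-5* at 1.26, 1.25 and 1.27 times in HS and 1.05, 1.13 and 1.10 times in NHS. All 3 genes were higher relative to the other subunits in every HS library. *rpn-1* stood at 1.57, 1.63 and 1.69 times the median subunit in HS and at 2.04, 2.19 and 2.04 times in NHS. *rpn-12* stood at 0.520, 0.522 and 0.520 times in HS and at 0.615, 0.621 and 0.619 times in NHS. For these 2 genes every HS library is lower. All 5 genes were picked by their change in the same normalized counts, so the same order of the groups here is no separate support. The groups also separate on this ratio in other subunits. HS is higher in *pas-2*, *pbs-2*, *pas-3* and *pbs-5*. It is lower in *pbs-1*, *pas-6*, *rpt-1*, *rpt-5*, *rpn-2*, *rpn-5*, *rpn-6.1*, *rpn-7*, *rpn-9* and *rpn-11*. The remaining subunits overlap.

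To compare levels between genes, normalized counts were divided by the length of the longest coding transcript. Per kb, the 32 subunits other than *rpn-6.2* ran from 1700 to 5399 in HS, a 3.18-fold range, and from 1925 to 5028 in NHS, a 2.61-fold range. The SD of their log2 level per kb was 0.50 in HS and 0.38 in NHS. The widening was largest in the lid, which holds *rpn-3* (0.53 in HS, 0.19 in NHS). It was smaller in the alpha ring (0.43 and 0.31), the ATPase ring (0.32 and 0.26) and the other base genes (0.24 and 0.23). In the beta ring the SD was lower in HS (0.36 and 0.39). The core genes had a median of 3723 per kb in HS and 3698 in NHS, above the regulatory genes other than *rpn-6.2* at 2165 in HS and 2429 in NHS. *rpn-3* was the highest of the 32 subunits per kb in HS and stood at rank 21 in NHS, and *rpn-8* stood at rank 11 in HS and rank 20 in NHS. *rpn-6.2* had 52.4 ± 5.41 counts per kb in HS and 40.4 ± 4.27 in NHS (SD, n = 3 each).

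**Figure D3:**
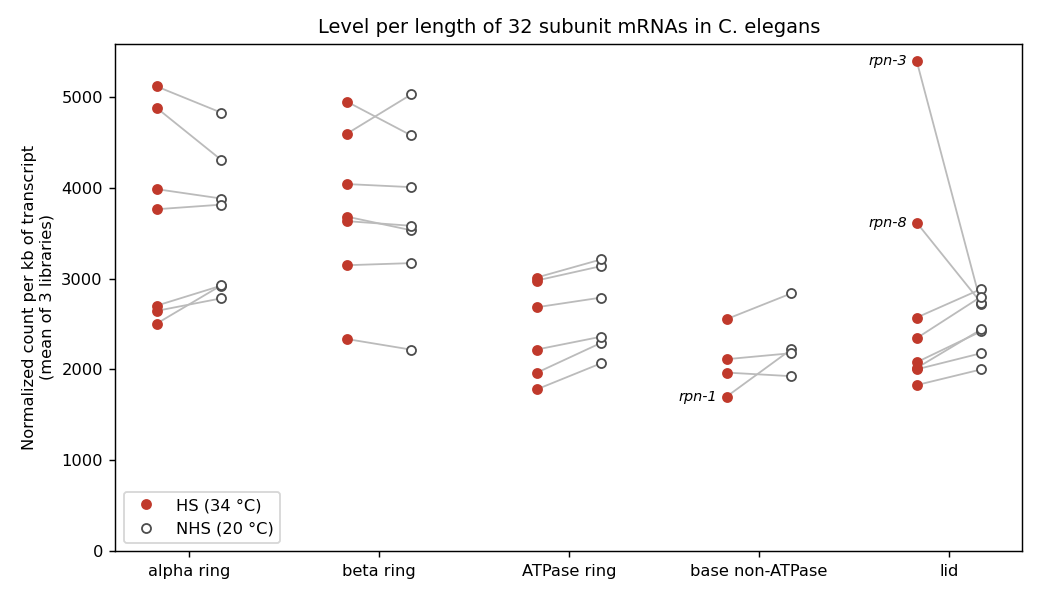
Mean normalized count per kb of transcript over 3 libraries for 32 subunits, HS (filled) joined to NHS (open) for each gene, by place in the complex, with no error bars. *rpn-3* stands at 5399 per kb in HS, the highest point of the lid, and the other lid genes except *rpn-8* slope up toward NHS.

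Genes that work with the proteasome were taken as a list of 22. Of these, 3 rose, 5 fell and 14 did not pass at an adjusted p under 0.05, with a median log2 fold change of -0.08, beside the 24.8% of all genes that rose and 20.2% that fell. *aip-1*, an arsenite-inducible protein that binds the proteasome, had 5323, 7067 and 2901 normalized counts in HS and 494, 581 and 504 in NHS. Every HS library is far above NHS, and HS replicate 3 is the lowest of the HS libraries here as for *rpn-3*. Its log2 fold change was 3.18 (SE 0.36, adjusted p = 0.0024), the only one of the 22 past 2-fold.

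Among the ubiquitin genes, *ubq-2*, which encodes ubiquitin fused to a ribosomal protein, had 70065, 73160.4 and 65235 in HS and 49880.4, 50452 and 51282 in NHS. It rose by 0.46 on the log2 scale (SE 0.05, adjusted p = 1.6e-04), with no overlap between groups. The polyubiquitin gene *ubq-1* had 29069, 33397 and 20755 in HS and 23114, 24368 and 23502 in NHS. HS replicate 3 lies below the NHS libraries and the other HS libraries above them, and *ubq-1* did not pass (log2 fold change 0.20, adjusted p = 0.40). Without HS replicate 3 it passed at a log2 fold change of 0.40 (adjusted p = 9.6e-04), without HS replicate 2 the value was 0.054, and with equal totals it was -0.15.

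*skn-1*, the regulator of the subunit genes, had 3249, 4056 and 3435 normalized counts in HS and 3037, 3110.0 and 2963 in NHS. The groups do not overlap, but HS replicate 1 is close to NHS, and the rise (log2 fold change 0.23, adjusted p = 0.039) was lost with another scaling factor, the trimmed mean of M values (TMM; adjusted p = 0.055), and turned to -0.12 with equal totals. It was also lost without HS replicate 2 or any 1 NHS library (adjusted p 0.069 to 0.11). The table counts *skn-1* as a whole, so its isoforms were not told apart. Factors of the endoplasmic reticulum and of the pathway that activates SKN-1A in *C. elegans* did not rise. *sel-1* and *sel-11* had log2 fold changes of -0.16 (adjusted p = 0.031) and -0.34 (adjusted p = 0.0097), and *png-1* and *ddi-1* had -0.11 and -0.12 and did not pass. The call of *sel-1* was lost without any one of the 6 libraries.

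The 3 remaining genes of the list that fell act on ubiquitin chains. *usp-14*, a deubiquitinase that works on the proteasome, had a log2 fold change of -0.24 (adjusted p = 0.0098), with 2282, 2309 and 2467 normalized counts in HS and 2810.5, 2637 and 2918 in NHS. *ufd-2*, which lengthens ubiquitin chains, had -0.35 (adjusted p = 6.6e-04), with 2621, 2602 and 2731 in HS and 3401, 3337 and 3365 in NHS. *chn-1*, the ortholog of the chaperone-linked ubiquitin ligase CHIP, had -0.34 (adjusted p = 0.0091), with 502, 453 and 434 in HS and 620, 563 and 578 in NHS. In all 3 genes the HS libraries lie below the NHS libraries. The segregase genes *cdc-48.1* and *cdc-48.2*, whose product pulls ubiquitinated proteins out of complexes, had 0.02 and -0.15 and did not pass, but *cdc-48.2* passed without HS replicate 3 (-0.20, adjusted p = 0.016) and with equal totals (-0.50, adjusted p = 1.8e-04).

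**Figure D4:**
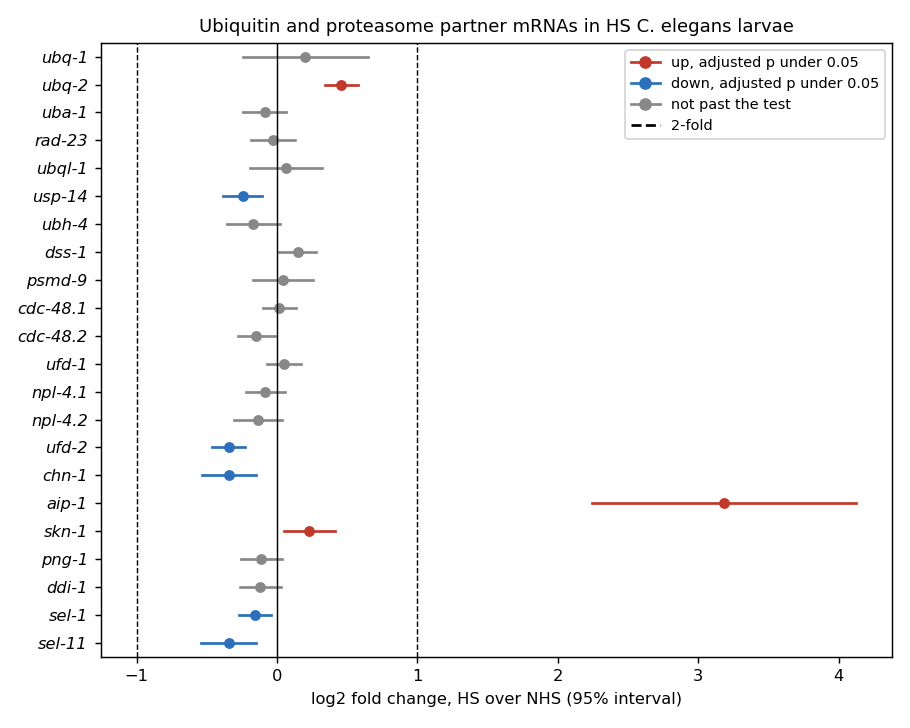
Log2 fold change, HS over NHS, with its 95% interval from limma for 22 genes of ubiquitin supply, delivery and proteasome gene control, on the scale of the normalized counts. *aip-1* at 3.18 is the only one past 2-fold, *ubq-2* is at 0.46, and the 5 genes that fell lie between -0.35 and -0.16. With libraries scaled to equal totals *skn-1* was at -0.12.

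In *C. briggsae*, a related nematode, the conditions were those of *C. elegans*, and the table was normalized and tested by itself. *Cbr-rpn-3* had 15669, 26303 and 21926 normalized counts in HS and 6136, 6298 and 6125 in NHS. All HS libraries are far above NHS, with HS replicate 1 the lowest. The ratio of the means was 3.44 and the log2 fold change 1.75, which carries no test, since the name of this ortholog was known from a list of genes higher in HS. *Cbr-pas-5* had 6051, 5866 and 5538 in HS and 4895, 5099.8 and 4722 in NHS. It rose by 0.25 on the log2 scale (SE 0.06, adjusted p = 0.015) with no overlap, where 17.1% of the 18470 genes tested rose and 15.9% fell, but had -0.14 with libraries scaled to equal totals, and lost its call without NHS replicate 1 (adjusted p = 0.061) or NHS replicate 3 (adjusted p = 0.070). *Cbr-pbs-3* had 4508, 4171 and 4063 in HS and 4358, 4576 and 4531 in NHS, overlapping, with a log2 fold change of -0.08 (adjusted p = 0.32). In *C. elegans*, *pbs-3* had 1844, 2013 and 2081 in HS and 1972, 1775 and 1893 in NHS (log2 fold change 0.07, adjusted p = 0.41). The difference between the species was not tested, and the scales of the 2 tables are not shared.

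**Figure D5:**
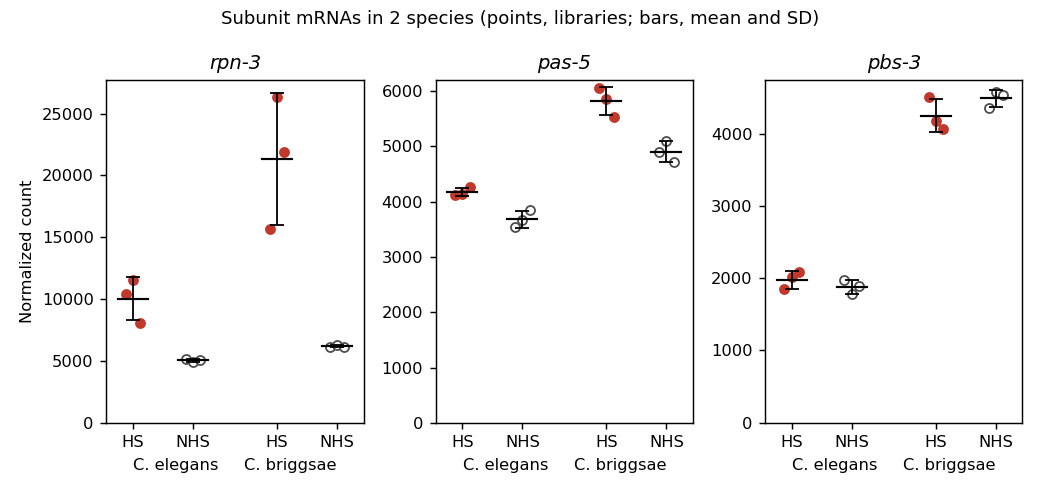
Normalized counts of *rpn-3*, *pas-5* and *pbs-3* in HS and NHS libraries of *C. elegans* (left pair) and *C. briggsae* (right pair), with the mean and SD of 3 libraries and axes from 0. In both species the 3 HS libraries of *rpn-3* and *pas-5* lie above their NHS libraries, and those of *pbs-3* overlap; levels are not comparable between the species, and *pas-5* was lower in HS in both with libraries scaled to equal totals.

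The subunit genes are spread over the genome, with 10 on chromosome I, 7 on II, 8 on III, 3 on IV, 5 on V and none on X. The closest protein-coding gene upstream of *rpn-3*, 443 bases away and on the opposite strand, is *hsp-110*, a heat-inducible chaperone gene, chosen for mention after its values were seen. It had 150634, 177873 and 119337 normalized counts in HS and 19018, 20556 and 18452 in NHS, at 2.93 as a log2 fold change (SE 0.14). HS replicate 3 is its lowest HS library, as it is for *rpn-3*, *aip-1*, *ubq-1* and *ubq-2*. For other subunits, among them *rpn-1*, *rpn-2*, *pas-5*, *pas-6* and *pbs-5*, HS replicate 3 is the highest HS library. It had the lowest depth estimate in *C. elegans* (28.6 M reads). Whether depth or *hsp-110* has a part in the values of *rpn-3* was not tested. The transcripts of *hsp-110* and *rpn-3* do not overlap in the annotation.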

How the data were processed

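RNA-seq libraries of total RNA (made with a strand-specific kit) were made from whole L2 larvae, 12 in all and 6 per species. The deposited files hold signal values, namely a normalized count for each gene. The authors obtained them by assigning reads to mRNA transcripts with Salmon 0.13.1 and scaling the 6 libraries of a species with DESeq2 1.18.1. Dividing by the smallest step gave whole reads (within 0.05 reads) for 69.6 to 71.6% of *C. elegans* values, so count tests were not run, and depth is an estimate. One *C. briggsae* column, whose strain name differs in 1 digit, was taken as AF16 NHS replicate 3. Columns left unused numbered 0, and 0 pairs of libraries were identical.

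Genes with a mean of at least 2 were tested as log2(value + 1) with limma 3.58.1 (R 4.3.3, statmod 1.5.0), using robust variances that follow a trend. Tests were two-sided, and p-values were adjusted by Benjamini-Hochberg over every gene tested. Fold changes are on that scale. Each species was fitted by itself. The limma fit was also run on simulated data with independent noise and no shift in library composition. That run does not speak to the larger HS library sums. Positions, neighbours and transcript lengths came from the WBcel235 annotation, which named 19868 of 20213 genes. Values of every library are given for the 5 subunits with the highest and the 5 with the lowest log2 fold change, for subunits with an adjusted p under 0.05 and for *rpn-6.1* and *rpn-6.2*. The members and lists were chosen with earlier results of these data known. Alternatives were the pseudocount, the filter, 2 other scalings, a replicate block and leaving out each library. Python 3.11.15 with pandas 2.3.3, numpy 2.4.6 and matplotlib 3.10.9 was used. Sequences were not used here.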

Additional observations from a re-analysis of the deposited data

How the results depend on the processing

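Pseudocounts of 0.5 and 5, a filter mean of 10 or none, and TMM scaling left every count of calls among the 33 subunits and 22 partner genes within 1.5 times its value. At an adjusted p under 0.01, 4 subunits fell. The core minus regulatory difference was 0.039 with means in place of medians. Scaling to equal totals gave 1 subunit up and 30 down, a subunit median of -0.43 and 18 partners down. There it turned the sign of *pas-2* (-0.32), *pas-3* (-0.27), *pas-5* (-0.18), *pbs-2* (-0.30), *pbs-3* (-0.28), *pbs-4* (-0.34), *pbs-5* (-0.24), *pbs-7* (-0.33), *rpn-13* (-0.33), *ubq-1* (-0.15), *ubql-1* (-0.29), *dss-1* (-0.21), *psmd-9* (-0.31), *cdc-48.1* (-0.34), *ufd-1* (-0.31), *skn-1* (-0.12) and *Cbr-pas-5* (-0.14), brought *Cbr-pbs-3* past the test at -0.47 and left *Cbr-rpn-3* at 1.36; by its construction it lowers every gene by the excess of the HS library sums. Leaving out 1 library at a time gave 0 to 1 subunits up past 2-fold, 2 to 3 up and 5 to 9 down at any fold, a subunit median of -0.11 to -0.039, 2 to 4 partners up and 4 to 6 down, and 0.22 to 0.28 for *Cbr-pas-5*. It moved the sign of *pbs-4* (-0.039 to 0.061), *pbs-6* (-0.069 to 0.041), *pas-7* (-0.062 to 0.030), *pbs-7* (-0.015 to 0.047), *rpn-13* (-0.0098 to 0.056), *rad-23* (-0.075 to 0.025), *ubql-1* (-0.044 to 0.18) and *cdc-48.1* (-0.022 to 0.036), none of them called. *rpn-3*, *rpn-8*, *rpn-1*, *rpn-7*, *rpn-11*, *rpn-12* and *rpt-5* were called at any fold whichever library was left out. With the mean of each condition taken out, every sample in both species correlated best with the sample of its own replicate number. These correlations were low (0.09, 0.06 and 0.15 in *C. elegans*, 0.02, 0.08 and 0.07 in *C. briggsae*). The main fit did not use the pairing. With the replicate number as a block, 3 subunits were up and 9 down, as without it, and *ubh-4* (adjusted p = 0.042) and *cdc-48.2* (adjusted p = 0.031) also passed, for 7 partners down. The small number of libraries in a group and whole-animal RNA limit what small changes can be told.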

Other observations

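Genes that lie head to head with a subunit gene were listed after the values of *rpn-3* were seen. Of the 33 subunit genes, 21 have a tested protein-coding gene upstream on the opposite strand, within 1000 bases and without overlap, and 4 of these neighbours rose past 2-fold at an adjusted p under 0.01, a call that 10.2% of all genes tested had. The 4 lie beside *rpn-3* (*hsp-110*, log2 fold change 2.93), *rpn-8* (*mrps-6*, 1.10), *rpn-6.2* (*zif-1*, 1.05) and *pas-6* (*CD4.11*, 1.49). The first 3 of these subunits have the 3 highest log2 fold changes of the complex. Of them, *rpn-6.2* did not pass the test and is scarce, with a mean of 81.7 normalized counts in HS and 62.9 in NHS. *pas-6* fell, beside a neighbour of at most 27.0 normalized counts. *mrps-6*, a mitochondrial ribosomal protein gene 544 bases from *rpn-8*, had 2937, 2208 and 3732 normalized counts in HS and 1339, 1306 and 1399.5 in NHS. Its highest HS library was replicate 3 and that of *rpn-8* was replicate 1. The HS values of *rpn-8* lie too close together (SD 110) for their order to be read. Over the whole table, 292 genes have a head-to-head neighbour called up, and 65.1% of them rose at any fold, with a median log2 fold change of 1.35, against 22.5% of 2603 genes whose head-to-head neighbour was not called up, with a median of 0.01. Pairs in which both genes rose count from both sides, and genes of a pair are not independent. These are counts without a test, and whether a neighbour has a part in the change of a subunit gene was not tested.

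On the far side of *rpn-3*, 410 bases downstream on the same strand, *mrpl-32*, another mitochondrial ribosomal protein gene, was at 0.66 as a log2 fold change (SE 0.09, adjusted p = 4.4e-04) with a mean of 1561 in HS and 985 in NHS. It was also chosen after its values were seen.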
